A study of Mus musculus with 6 samples.

Results

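Interferon-stimulated genes are the genes that cells switch on after type I, type II or type III interferon binds its receptor. A list of 41 of them was read in 6 RNA-seq libraries of sorted mouse retinal cells by matching gene symbols to the rows of the count table, and 40 of the 41 had a row among 21851 genes. Mx2, annotated as a pseudogene in some strains, was not analysed here. The 40 genes all passed the filter on low counts, and the lowest count of any of them in any library was 111.

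Cells with CD45 and an intermediate CD11b level, labelled as microglia, were sorted from dissociated retina and read by Smart-seq2, a full-length RNA-seq method for small cell numbers. There were 3 libraries from mice of genotype CD36 flox, called wildtype in the protocol, and 3 from mice of genotype CD36 CKO, a conditional knockout of the lipid scavenger receptor gene Cd36. The labels used here do not name the Cre line. The treatment text describes an intravenous dose of 20 mg/kg sodium iodate, an oxidant toxic to the retinal pigment epithelium, or its buffer, and eyes taken 7 days later, but assigns neither to a library. The codes of flox 2 and flox 3 share a mouse number and differ in OD or OS, and so do those of CKO 2 and CKO 3, whereas flox 1 and CKO 1 each have a number of their own. Libraries of a shared number may come from the same animal, which would make p-values over 3 against 3 libraries too small.

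Libraries held 13462683 to 20018910 counts. Cd36 was counted at 90.5, 193 and 144 CPM (a count scaled to a common library size) in flox 1 to 3 and at 122, 65.2 and 28.5 CPM across CKO 1 to 3, so the library labelled CKO 1 held more of it than flox 1. Directions below therefore refer to labels. Microglial genes were present in every library, for example Tmem119 at 174 to 287 CPM and P2ry12 at 82.4 to 324 CPM. Haemoglobin RNA, a sign of red blood cells, split the libraries across the labels: flox 2, flox 3 and CKO 1 held 4243, 1759 and 1927 CPM of 4 haemoglobin genes, and flox 1, CKO 2 and CKO 3 held 0.339, 0.0837 and 0.309 CPM. The former 3 are called haemoglobin-positive and the latter 3 haemoglobin-negative. Cd36 itself was higher in each haemoglobin-positive library than in any haemoglobin-negative one, and its part in the levels below was not tested.

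As background, type I interferons act through the receptor chains IFNAR1 and IFNAR2 and the kinases JAK1 and TYK2, which activate STAT2. It joins IRF9 in ISGF3, a complex that binds the interferon-stimulated response element in promoters. Interferon gamma acts at the gamma-activated site, and preferentially raises guanylate-binding proteins and immunity-related GTPases. Microglia carry these receptors, and a microglial interferon response is known from ageing, injury and degeneration of nervous tissue.

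Promoter sequence was read for the response element. Of 31 listed genes with an entry in the RefSeq promoter table (GRCm38.p6), 17 (54.8%) held the core of the response element, GAAANNGAAA on either strand and overlapping matches included, within 250 bases upstream of a start, and 14 did not. The same letters occurred upstream of 936 of 27025 genes (3.46%). The core of the gamma-activated site, TTCCNGGAA, was upstream of 3 of 31 listed genes (9.68%: Ifit2, Bst2 and Gbp7) and 295 of all genes (1.09%). A match is a description of the letters and not a binding site. Below are the 150 bases before the RefSeq start of 6 listed genes, chosen as 1 or 2 examples from the main roles: the ubiquitin-like modifier Isg15, the tetratricopeptide genes Ifit1 and Ifit3, the RNA-sensing enzyme gene Oas3, the virus tether Bst2 and the GTPase Igtp. Capitals mark the matches to the response element core.
Isg15, chr4:156200819-156200968, minus strand: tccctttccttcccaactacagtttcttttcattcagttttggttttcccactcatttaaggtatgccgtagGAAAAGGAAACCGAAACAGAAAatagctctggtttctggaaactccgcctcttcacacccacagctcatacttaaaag
Ifit1, chr19:34640739-34640888, plus strand: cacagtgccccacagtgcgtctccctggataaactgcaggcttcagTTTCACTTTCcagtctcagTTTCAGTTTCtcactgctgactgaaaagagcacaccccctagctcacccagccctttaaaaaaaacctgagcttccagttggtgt
Ifit3, chr19:34583379-34583528, plus strand: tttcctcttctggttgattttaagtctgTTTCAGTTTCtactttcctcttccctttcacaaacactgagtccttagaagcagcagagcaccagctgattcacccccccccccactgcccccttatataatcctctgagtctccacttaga
Oas3, chr5:120777660-120777809, minus strand: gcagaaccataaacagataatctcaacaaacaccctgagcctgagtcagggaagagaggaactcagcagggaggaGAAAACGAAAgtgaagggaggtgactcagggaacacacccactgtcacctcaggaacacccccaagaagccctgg
Bst2, chr8:71537473-71537622, minus strand: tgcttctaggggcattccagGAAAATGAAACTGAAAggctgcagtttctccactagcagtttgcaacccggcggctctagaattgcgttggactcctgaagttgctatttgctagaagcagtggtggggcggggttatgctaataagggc
Igtp, chr11:58199406-58199555, plus strand: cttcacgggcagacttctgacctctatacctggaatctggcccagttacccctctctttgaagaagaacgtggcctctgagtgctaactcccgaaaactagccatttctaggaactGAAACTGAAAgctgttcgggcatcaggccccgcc
Counted from the start, Isg15 held 3 overlapping matches between -78 and -57, and Ifit1 held 2 separate ones at -104 to -95 and -85 to -76. Bst2 held 2 overlapping matches farther out, from -130 to -115, with its gamma-activated site core at -136 to -128. Ifit3 held a further response element core at -156 to -147, outside the bases shown.

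All 40 genes were counted in every library, and both the highest and the lowest levels lay mostly in libraries of the CKO label. The library labelled CKO 2 had the highest level of 29 of the 40 genes, and the library labelled CKO 1 the lowest of 26. Among all 13477 genes tested, CKO 2 was highest for 18.97% and CKO 1 lowest for 19.4%. No listed gene was highest in CKO 1 or flox 3, and none was lowest in CKO 2. For 26 of the 40 genes (65%) both the highest and the lowest library carried the CKO label, against 28.9% of all genes. The median of the 40 genes, each centred on its own mean over the 6 libraries on the log2 scale, was 0.46 in CKO 2, 0.19 in flox 1, 0.02 in flox 2, -0.10 in CKO 3, -0.14 in flox 3 and -0.49 in CKO 1, and that of all genes was 0.00 to 0.02. The 3 flox libraries thus lay between the 2 extreme CKO libraries.

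**Figure D1:**
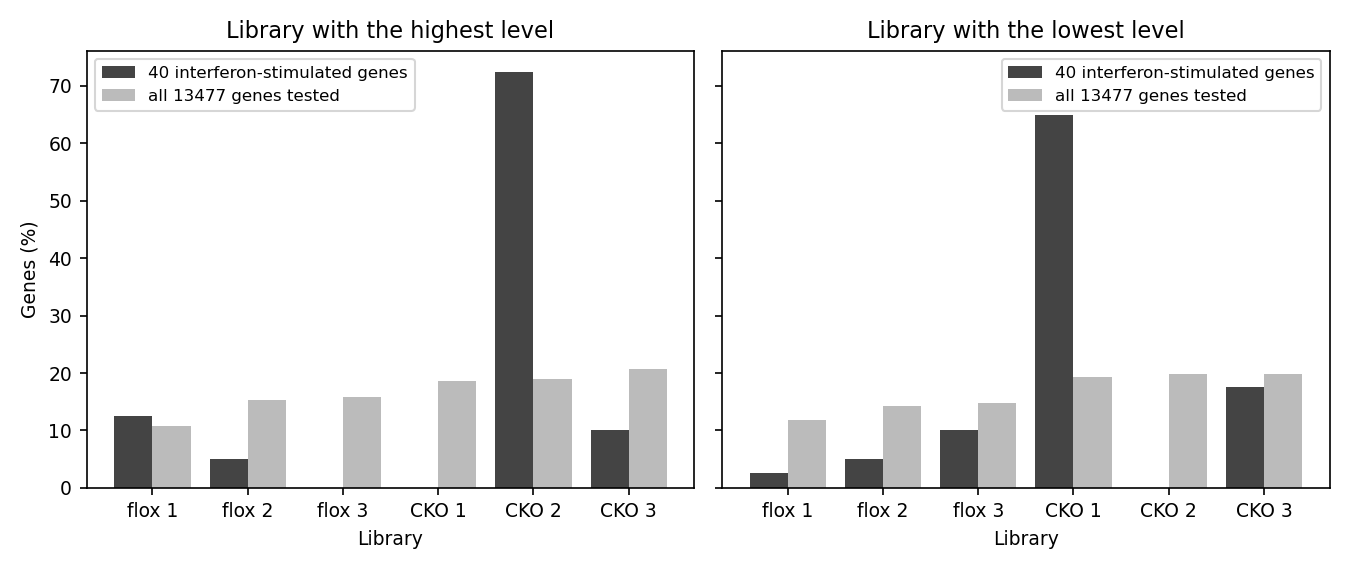
Share of genes (y axis, %) whose highest (left) or lowest (right) level falls in each library (x axis), for the 40 interferon-stimulated genes (dark bars) and all 13477 genes tested (pale bars). CKO 2 holds the highest level of 29 listed genes and CKO 1 the lowest of 26.

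**Figure D2:**
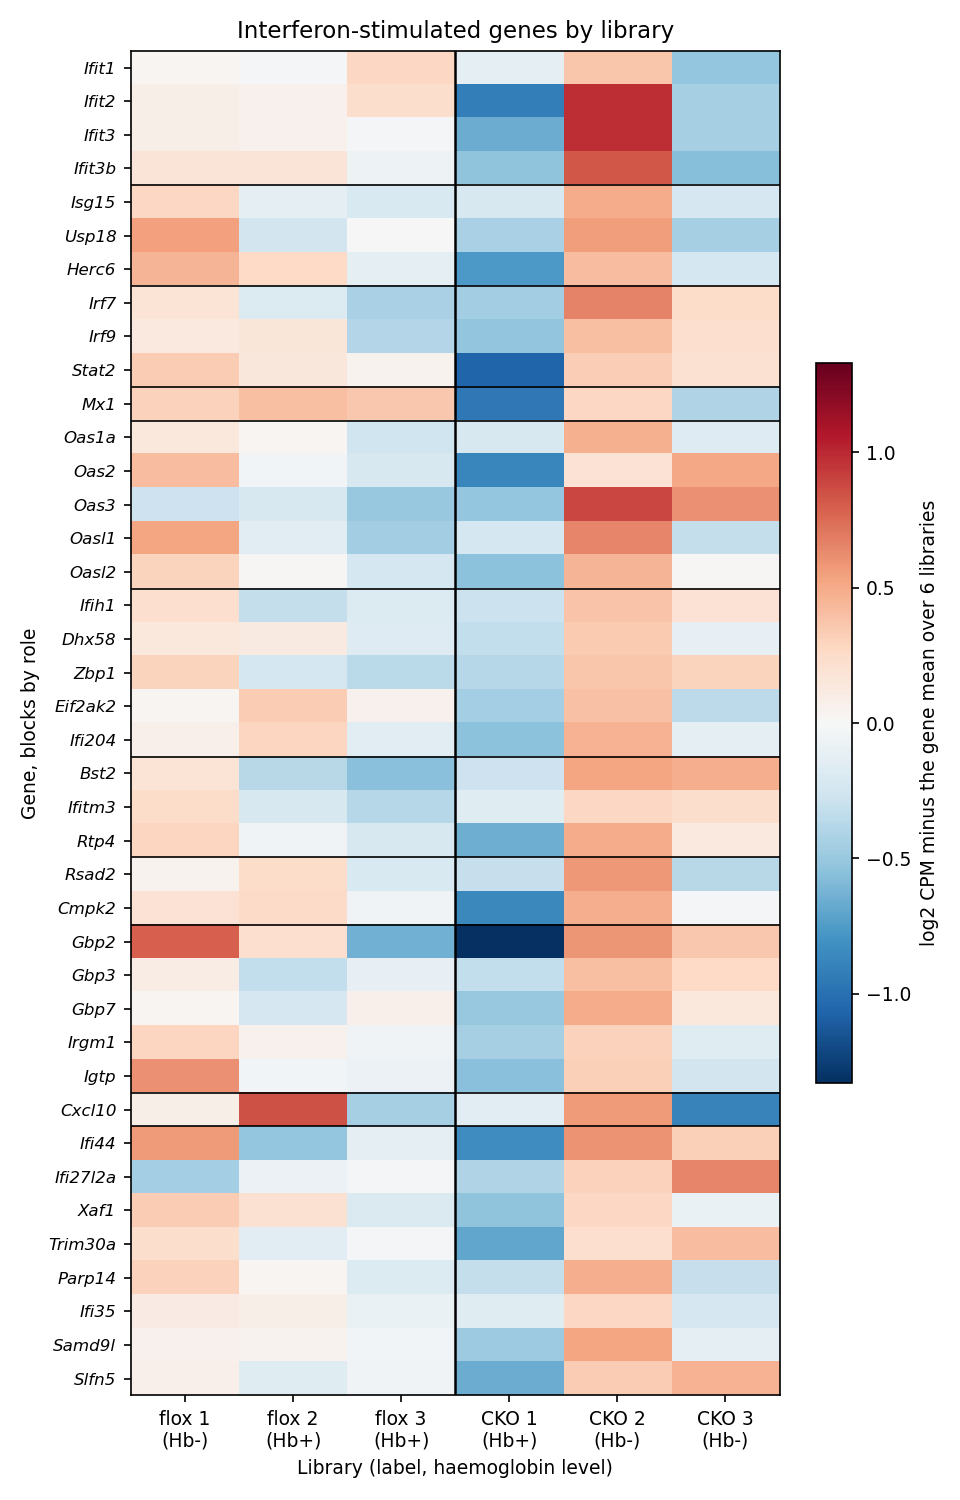
Level of each of the 40 genes (rows, in blocks by role) in each library (columns, with haemoglobin level as Hb+ or Hb-), as log2 CPM minus the gene's mean over 6 libraries (colour). The CKO 2 column is mostly above and the CKO 1 column mostly below the gene means, with flox libraries between.

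Between the labels, 0 of 40 genes passed at an adjusted p of 0.05 (edgeR, quasi-likelihood, Benjamini-Hochberg over all genes), where 0 of 13477 genes (0%) passed. At an unadjusted p under 0.05 there were 0 of 40 listed genes and 379 of all genes (2.81%). DESeq2 also called 0 listed genes against 18 of all genes (0.134%), and at an unadjusted p under 0.05 it held 1 of 40 against 3.61% of all genes. Limma-voom called 0 listed genes and 0% of all genes, with 3 of 40 against 5.48% unadjusted. The log2 fold changes, CKO minus flox, ran from -0.63 to 0.77, with standard errors of 0.18 to 0.52 and adjusted p = 0.9996 for each of the 40 genes, and 37 of 40 were smaller than 0.5 in size, against 80.5% of all genes. In sign, 21 were negative and 19 positive, with a median of -0.01 (all genes 0.00). That median rests on single libraries: it was 0.21 without CKO 1, with 9 of 40 negative, and -0.30 without CKO 2, with 31 negative. It was 0.13 without flox 1, with 14 negative, and 0.03 without CKO 3, with 15 negative.

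**Figure D3:**
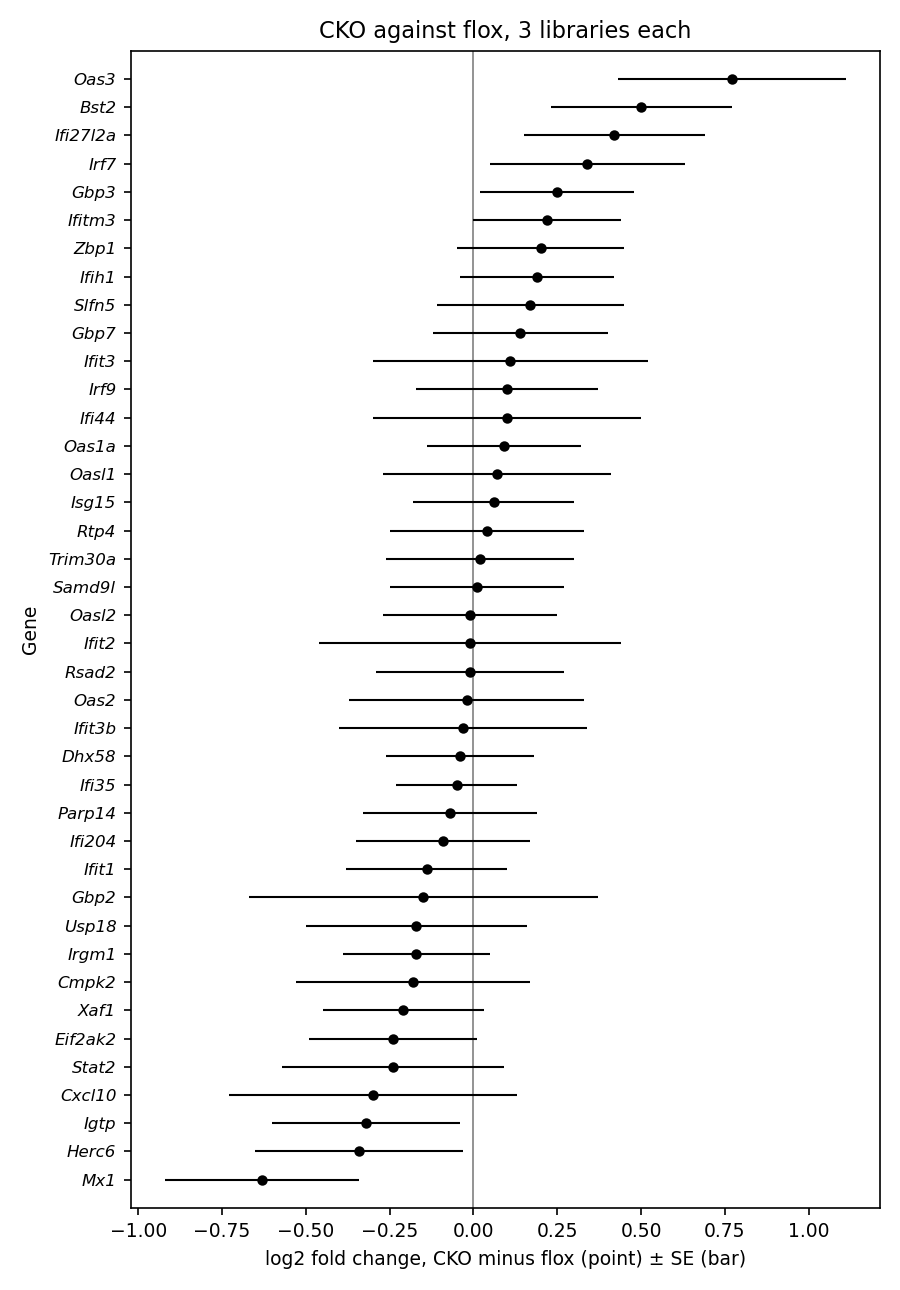
Log2 fold change of each gene, CKO minus flox (x axis, point), with its standard error from edgeR (bar), for the 40 genes (y axis), 3 libraries a label. The points run from -0.63 for Mx1 to 0.77 for Oas3, and 37 lie within 0.5 of 0.

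Interferon ligands were hardly counted. Of 21 ligand genes, 15 had no count in any library and 0 passed the filter on low counts. At these depths a 0 leaves room for 3 counts in a library, which is 0.1499 to 0.223 CPM, for counting error only. Ifnb1, the interferon beta gene, had 1, 4 and 0 counts in flox 1 to 3 and 67, 3 and 0 counts in CKO 1 to 3. The library with the lowest interferon-stimulated level thus held the most Ifnb1 counts. Ifng, the interferon gamma gene of T and NK cells, had 109, 14 and 8 counts in flox 1 to 3 and 4, 7 and 0 counts in CKO 1 to 3, so that flox 1 stood apart.

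Receptor and signalling genes were all measurable. Of 6 receptor genes, all had a positive fold change, with a median of 0.15, and 0 passed. CKO 2 held the highest level of all 6. Ifnar1 stood at 48.5 ± 10.8 CPM among flox and 57.2 ± 13.6 among CKO, and Ifnar2 at 144 ± 11.1 against 164 ± 51.8 (SD, n = 3 each). Ifnlr1, a receptor chain for interferon lambda, stood at 1.65 ± 0.495 against 3.16 ± 0.789 CPM, with no overlap of the labels, as for 3.88% of all genes in that direction (log2 fold change 0.94, SE 0.54, adjusted p = 0.9996 by edgeR). Of 7 signal transduction genes 5 were positive and 2 negative, and 0 passed. Jak1 stood at 93.4 ± 6.17 against 107 ± 7.18 CPM, also with no overlap, Jak2 at 44.96 ± 7.03 against 55.4 ± 18.1 and Tyk2 at 15.5 ± 3.48 against 17.3 ± 2.88.

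Sensors and inducers of interferon split 7 positive to 8 negative among 15 genes, with 0 called. Cgas, which senses DNA in the cytosol, stood at 24.3 ± 6.47 CPM among flox and 15.5 ± 0.705 among CKO (log2 fold change -0.65, SE 0.24, adjusted p = 0.9996 by edgeR, n = 3 each). Its labels did not overlap, as for 4.12% of all genes in that direction, and its unadjusted p was 0.0249. Ikbke, a kinase that activates IRF3, stood at 3.42 ± 0.781 against 7.595 ± 4.78 CPM. Negative regulators split 5 to 5 among 10, with Rnaseh2b at 51.3 ± 6.74 against 44.2 ± 8.998 CPM and the phosphatase gene Ptpn11 at 31.4 ± 1.88 against 28.5 ± 3.74. Neither list held a called gene.

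Among the factors that carry the signal to the nucleus, Stat2, a subunit of ISGF3 (chromosome 10, 128270559 to 128292849, GRCm38), stood at 43.2, 38.1 and 35.3 CPM across flox 1 to 3 and at 16.4, 43.04 and 39.3 CPM across CKO 1 to 3. CKO 1 lay far under every other library, and CKO 2 and CKO 3 lay within the flox range. Its log2 fold change was -0.24 (SE 0.33). Irf9, the DNA-binding subunit of ISGF3, ranged from 55.2 to 80.6 CPM among flox and from 50.1 to 95.5 CPM among CKO.

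Irf7, which amplifies type I interferon production (chromosome 7, 141262706 to 141266481), stood at 313, 243 and 204 CPM among flox and at 199.7, 435 and 328 CPM among CKO. The labels overlapped, with CKO 1 lowest and CKO 2 highest, and the log2 fold change was 0.34 (SE 0.29), which was 0.05 without CKO 2, 0.59 without CKO 1, 0.52 without flox 1, 0.21 without flox 3 and 0.06 with haemoglobin level as a term. In Irf7 the haemoglobin-negative libraries, at 313 CPM or more, all lay above the haemoglobin-positive ones, at 243 CPM or less.

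Isg15, a ubiquitin-like protein joined to other proteins (chromosome 4, 156199424 to 156200818), stood at 158, 120.5 and 114 CPM across flox 1 to 3 and at 113, 185 and 112 CPM across CKO 1 to 3. The values fell into a high pair, CKO 2 and flox 1, and 4 libraries between 112 and 120.5 CPM. Its log2 fold change was 0.06 (SE 0.24), and this sign changed with the processing.

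Usp18, the protease that removes ISG15 and damps receptor signalling, had the same high pair. It stood at 104, 60.1 and 71.1 CPM among flox and at 52.9, 105 and 52.2 CPM among CKO. Its log2 fold change was -0.17 (SE 0.33). Herc6, which in mouse attaches ISG15 to its targets, stood at 32.1 ± 6.32 CPM among flox and 25.4 ± 10.4 among CKO (log2 fold change -0.34, SE 0.31).

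The tetratricopeptide genes, some of whose proteins bind viral RNA and block its translation, lie together on chromosome 19 and varied widely within the CKO label. Ifit3 (34583531 to 34588731) stood at 201, 198 and 188 CPM across flox 1 to 3 and at 119.9, 376 and 139 CPM across CKO 1 to 3. The flox libraries hardly differed, while CKO 2 was 3.14-fold above CKO 1 and 2.696-fold above CKO 3, with which it shares a mouse number. The log2 fold change was 0.11 (SE 0.41).

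Ifit2 had the same shape, at 63.6, 62.6 and 70.9 CPM among flox and 31.8, 119 and 44.4 CPM among CKO. Ifit3b, a near-identical neighbour of Ifit3 whose reads could be divided between them, ranged from 41.5 to 49.02 CPM among flox and from 29.4 to 76.96 CPM among CKO. Ifit1 (34640871 to 34650009) stood at 42.2, 40.7 and 50.4 CPM among flox and 38.3, 53.7 and 29.2 CPM among CKO (log2 fold change -0.14, SE 0.24). All 4 genes were highest in CKO 2. Deposited counts of Ifit1, Ifit3 and Ifit3b were not whole in any library, so reads shared with near-identical genes may have been divided, as for Irf9, Oas1a, Ifi204, Gbp3, Gbp7, Igtp, Xaf1, Trim30a and Slfn5.

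Mx1, a dynamin-like GTPase gene that is defective in many laboratory strains (chromosome 16, 97447035 to 97462907), was the sole listed gene whose labels did not overlap. It stood at 48.1, 51.3 and 50.01 CPM across flox 1 to 3 and at 20.2, 47.1 and 29.6 CPM across CKO 1 to 3. CKO 2 lay just under the lowest flox library, and the other CKO libraries lay well under it. CKO minus flox was -0.63 on the log2 scale (SE 0.29, adjusted p = 0.9996 by edgeR, 0.0607 unadjusted), with 3 of 3 CKO libraries lower. It was -0.38 without CKO 1 and -1.01 without CKO 2. Complete separation with CKO lower held for 1 of 40 listed genes and 4.12% of all genes, and with CKO higher for 0 of 40 and 3.88%.

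Oas3, which makes the second messenger that activates RNase L (chromosome 5, 120753098 to 120777661), had the largest positive fold change of the list. It stood at 17.5, 18.3 and 14.9 CPM among flox and at 14.8, 39.3 and 32.2 CPM among CKO. CKO 2 and CKO 3 lay above all flox libraries and CKO 1 lay just below them, so the labels overlapped (log2 fold change 0.77, SE 0.34, unadjusted p 0.0531). The fold change was 1.08 without CKO 1, 0.47 without CKO 2 and 0.44 with haemoglobin level as a term. Its 4 listed relatives overlapped between labels too. Oas1a ranged from 144 to 191 CPM among flox and 149.8 to 242 CPM among CKO, Oas2 from 31.6 to 48.8 and 20.05 to 52.5, Oasl1 from 26.6 to 52.9 and 29.4 to 57.7, and Oasl2 from 99.1 to 143 and 80.1 to 159.

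The 5 listed genes grouped here as nucleic acid sensors and sensor-linked proteins all had their highest level in CKO 2, as did 29 of all 40. The oligoadenylate synthetase family above was grouped apart. Ifih1, the MDA5 sensor of long double-stranded RNA, stood at 45.6 ± 9.35 CPM among flox and 52.1 ± 11.7 among CKO (log2 fold change 0.19, SE 0.23). Zbp1, a sensor of Z-form nucleic acid that can start necroptosis, stood at 118 ± 29.8 against 136 ± 35.3 CPM (0.20, SE 0.25). Eif2ak2, the kinase PKR, stood at 49.01 ± 6.09 against 41.6 ± 14.1 CPM (-0.24, SE 0.25). Dhx58, a regulator of RNA sensing, ranged from 31.7 to 50.6 CPM over the 6 libraries and Ifi204, of the DNA-binding PYHIN family, from 141 to 285 CPM.

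Per kilobase of annotated exon the most abundant of the 40 genes were Ifi27l2a, Ifitm3 and Bst2, at a mean level of 3186, 1798 and 725 CPM per kilobase, followed by Isg15 at 177. The lowest were Oas3, Herc6 and Cmpk2, at 3.23, 3.096 and 3.09 CPM per kilobase. The rest lay between 4.97 for Ifi44 and 117 for Ifit3.

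Bst2, which tethers budding virus to the cell surface (chromosome 8, 71534255 to 71537456), stood at 713, 487 and 428 CPM across flox 1 to 3 and at 520, 903 and 880 CPM across CKO 1 to 3. CKO 2 and CKO 3 lay above every flox library and CKO 1 lay within the flox range (log2 fold change 0.50, SE 0.27, and 0.25 with haemoglobin level as a term). Ifitm3, which blocks virus entry (chromosome 7, 141009586 to 141010770), stood at 1422, 1033 and 919 CPM among flox and at 1074, 1456 and 1410 CPM among CKO. The flox range and the CKO range of Ifitm3 covered nearly the same levels (0.22, SE 0.22).

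Ifi27l2a, of the Ifi27 family (chromosome 12, 103442167 to 103443680), differed from most of the list in its order. It stood at 1040, 1345 and 1401 CPM among flox and 1074, 1764 and 2228 CPM among CKO. It was the sole listed gene lowest in flox 1, and its highest level was in CKO 3 (0.42, SE 0.27, and 0.17 without CKO 3 or 0.66 without CKO 1). Rtp4, a receptor-transporter protein gene, ranged from 174 to 247 CPM among flox and from 129 to 285 CPM among CKO.

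In a further list of interferon-stimulated genes 2 of 66 tested had an unadjusted p under 0.05, a share near the 2.81% of all genes, and both are paralogues of Ifitm3. Ifitm1 stood at 64.2, 36.4 and 21.3 CPM among flox and 68.9, 156 and 120.1 CPM among CKO (unadjusted p 0.00999, adjusted p = 0.9996 by edgeR). All 3 CKO libraries of Ifitm1 lay above the flox libraries. Ifitm2 stood at 345 ± 68.1 against 528 ± 85.7 CPM (log2 fold change 0.61, SE 0.21, same adjusted p), likewise with no overlap. In that list 43 were positive and 23 negative, with a median of 0.12 and 0 called. CKO 2 was highest for 40 of these 66 genes and CKO 1 lowest for 37, as for the 40 genes above.

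**Figure D4:**
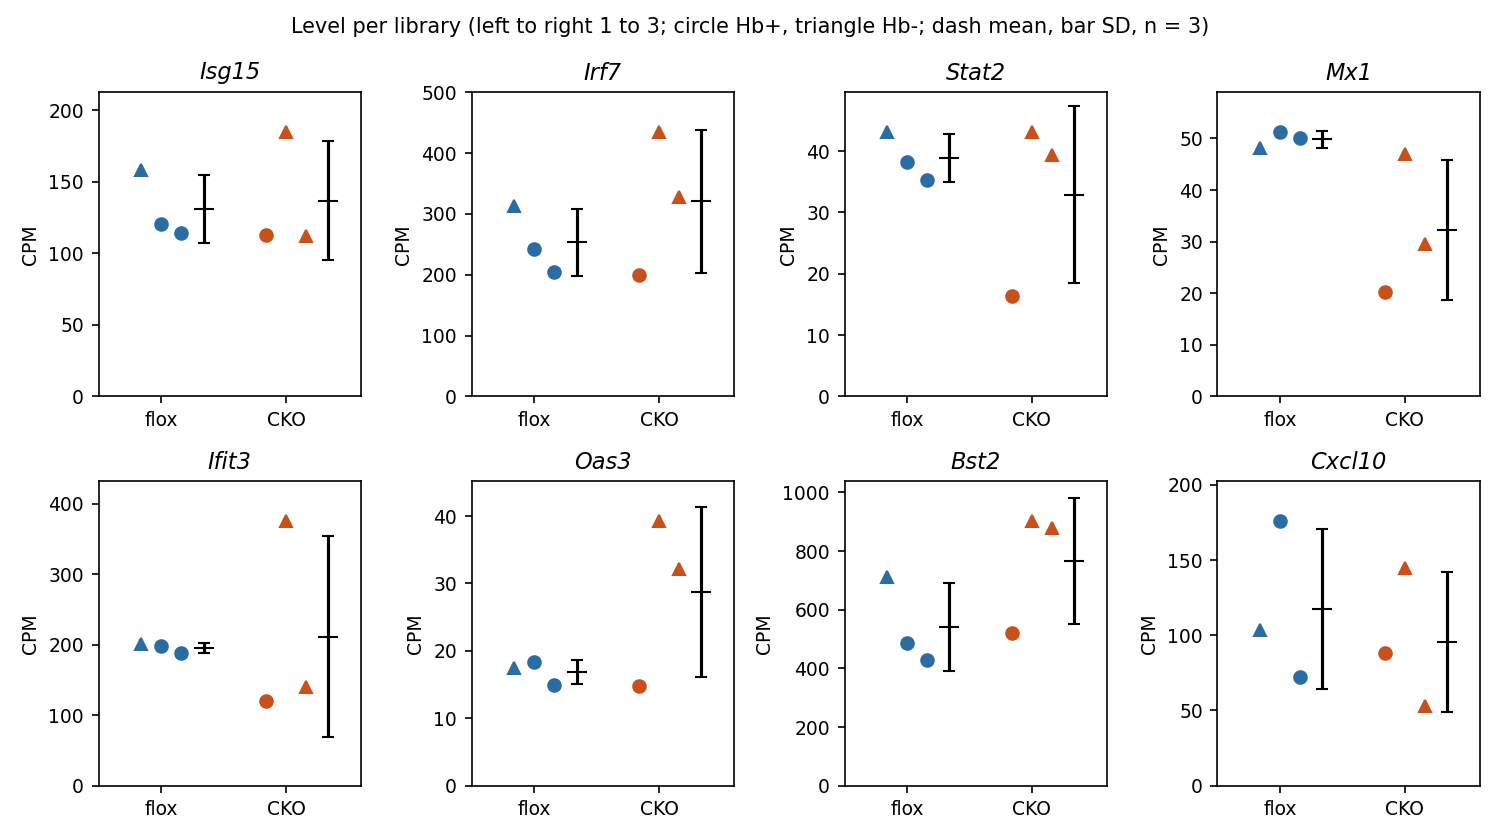
Level (y axis, CPM) of 8 genes in flox and CKO libraries (x axis, points 1 to 3 from left to right, circles haemoglobin-positive and triangles haemoglobin-negative), with the mean (dash) and SD (bar, n = 3). Flox and CKO points overlap in all genes but Mx1, and the CKO points of Ifit3 span 119.9 to 376 CPM.

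Guanylate-binding proteins and immunity-related GTPases, which attack vacuoles that hold microbes, were lowest in CKO 1 in 4 of 5 genes. Gbp2 stood at 62.8, 42.3 and 23.3 CPM among flox and at 14.4, 54.7 and 46.6 CPM among CKO, the widest span of the list at 4.36-fold. Its highest level was in flox 1. Igtp (chromosome 11, 58199556 to 58207591) was also highest there, at 61.4, 39.1 and 38 CPM among flox and 27.3, 50.1 and 33.8 CPM among CKO (log2 fold change -0.32, SE 0.28). It was -0.06 without flox 1, -0.14 without CKO 1 and -0.60 without CKO 2. Irgm1 stood at 108 ± 13.04 CPM among flox and 95.7 ± 25.7 among CKO (-0.17, SE 0.22), and Gbp3 at 38.4 ± 5.56 against 45.6 ± 11.3 (0.25, SE 0.23). Gbp7 ranged from 27.04 to 53.7 CPM over the 6 libraries. Gbp3, Gbp7 and Irgm1 were highest in CKO 2.

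Cxcl10, a chemokine that draws activated T cells (chromosome 5, 92346638 to 92348889), overlapped between labels. Its highest level was in flox 2 and its lowest in CKO 3, and CKO 2 lay above CKO 3 as in most listed genes. It stood at 103, 176 and 72.3 CPM across flox 1 to 3 and at 88.5, 145 and 53.1 CPM across CKO 1 to 3. Within each pair of a shared mouse number it differed by more than between labels, 2.44-fold between flox 2 and flox 3 and 2.73-fold between CKO 2 and CKO 3 (log2 fold change -0.30, SE 0.43).

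Rsad2, the viperin gene whose product makes an RNA chain terminator, stood at 44.8, 51.6 and 37.8 CPM among flox and at 35.1, 64.9 and 33.5 CPM among CKO (log2 fold change -0.01, SE 0.28). Its neighbour Cmpk2, a nucleotide kinase gene, ranged from 6.805 to 17.3 CPM, lowest in CKO 1 and highest in CKO 2. Xaf1, a partner of the apoptosis inhibitor XIAP, stood at 128 ± 23.3 against 111 ± 30.6 CPM (-0.21, SE 0.24).

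The 6 remaining genes overlapped between labels as well. Ifi44, an induced antiviral gene, ranged from 16.1 to 43.2 CPM and Slfn5, of the Schlafen family, from 56.8 to 124. Trim30a, a negative regulator of Toll-like receptor signalling in mouse, ranged from 94.9 to 203 CPM. Parp14, an ADP-ribosyltransferase, ranged from 38.2 to 66.7 CPM, and Samd9l, a restriction factor of poxviruses, from 25.3 to 50.8. Ifi35 had the narrowest span of the list, from 98.6 to 139 CPM or 1.41-fold.

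Libraries of a shared mouse number differed in these genes. CKO 2 lay above CKO 3 in 36 of the 40 genes (90%), against 49.1% of all genes, with a median log2 ratio of 0.46 (all genes -0.01). The gap was widest for Cxcl10, Ifit3 and Ifit2, at 2.73-, 2.696- and 2.69-fold, and narrowest for Bst2 and Ifitm3, at 1.03-fold. Trim30a, Oas2, Ifi27l2a and Slfn5 lay lower in CKO 2. Flox 2 lay above flox 3 in 30 of 40 genes (75%), against 50.2% of all genes, with a median log2 ratio of 0.17. In 31 of 40 genes the gap between CKO 2 and CKO 3 exceeded that between the means of the labels, as it did for 68.4% of all genes.

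Within libraries of like haemoglobin level the direction was not the same. Among haemoglobin-positive libraries CKO 1 lay below the mean of flox 2 and flox 3 in 37 of 40 genes, against 50.5% of all genes. The median log2 ratio was -0.44 (all genes -0.01), and CKO 1 lay below both in 33 (82.5%, against 35.1% of all genes). The ratio was -1.33 for Mx1, -1.19 for Gbp2, -1.17 for Stat2 and -1.07 for Ifit2, and above 0 for Bst2 (0.18), Ifitm3 (0.14) and Oasl1 (0.06). Among haemoglobin-negative libraries the mean of CKO 2 and CKO 3 lay below flox 1 in 18 genes and above it in 22. This split was close to that of all genes (47.9% and 52.1%), and the median was 0.04 (all genes 0.02). There CKO 2 lay above flox 1 in 32 genes (49.03% of all genes) and CKO 3 below it in 29 (48.45% of all genes). Flox 1 stood between them for 25 of 40 genes, against 38.3% of all genes. The ratio was 1.03 for Oas3 and 0.94 for Ifi27l2a, and -0.55 for Igtp and -0.41 for Usp18. In 17 of 40 genes CKO was lower at both levels, Mx1 among them (-0.33 and -1.33), against 22.3% of all genes. Each of these ratios sets 1 library against 2 and has no test. A test of whether the CKO difference itself depends on haemoglobin level (edgeR, interaction term) called 0 of 40 listed genes and 0% of all genes. At an unadjusted p under 0.05 it held 4 of 40, Stat2, Oas3, Ifi27l2a and Slfn5, and 5.7% of all genes. Its spread comes from libraries that share a mouse number.

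**Figure D5:**
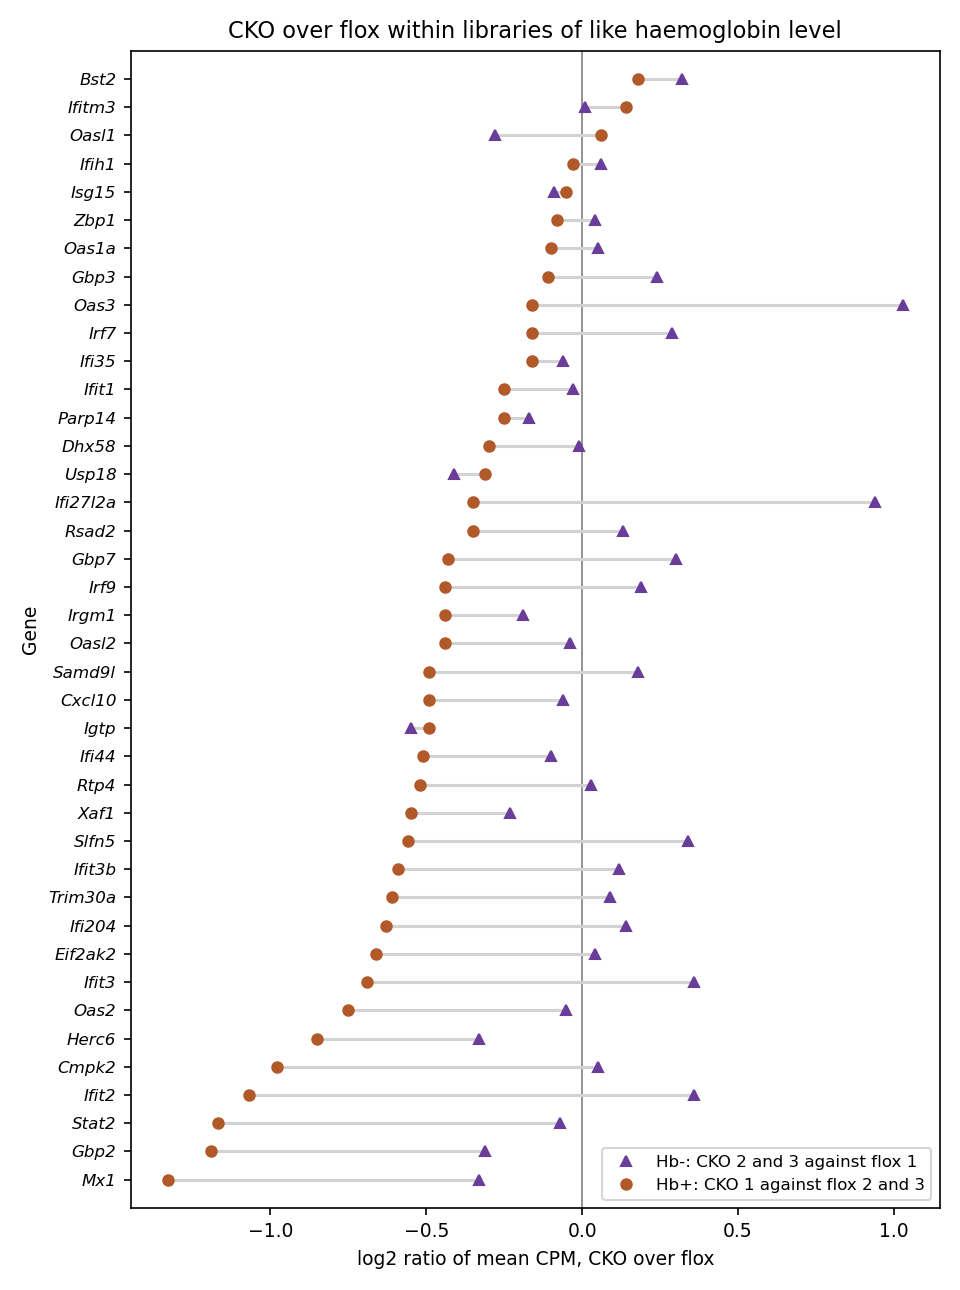
Log2 ratio of mean CPM, CKO over flox (x axis), of each of the 40 genes (y axis) among haemoglobin-negative libraries (triangles, CKO 2 and CKO 3 over flox 1) and haemoglobin-positive libraries (circles, CKO 1 over flox 2 and flox 3). Circles lie left of 0 for 37 genes, while triangles lie on both sides.

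With haemoglobin level as a term, 33 of 40 genes had a negative CKO difference, with a median of -0.19 (all genes -0.00), and edgeR called 0 of 40 against 2 of all genes (0.0148%). Mx1 (-0.82, SE 0.29), Igtp (-0.52, SE 0.2) and Gbp2 (-0.74, SE 0.31) had an unadjusted p under 0.05, or 3 of 40 lower in CKO, against 0.994% of all genes. Their adjusted p was 0.999 (edgeR). Libraries of a shared mouse number summed into 1, which leaves 2 against 2, gave 33 of 40 negative with a median of -0.20 and 0 called.

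By haemoglobin level, most listed genes had a negative difference that did not pass the edgeR test. In the same fit the estimate of 39 of 40 genes was lower in the 3 haemoglobin-positive than in the 3 haemoglobin-negative libraries, Cxcl10 being the exception, with a median log2 difference of -0.53 (all genes -0.00). All 3 haemoglobin-positive libraries lay under all 3 others for 13 of 40 genes, against 11.6% of all genes, among them Irf7, Stat2, Bst2, Ifitm3 and Zbp1, and the other 27 did not separate that way. On the centred median of the 40 genes the levels overlapped, with haemoglobin-negative CKO 3 at -0.10 and haemoglobin-positive flox 2 at 0.02. At an unadjusted p under 0.05, 19 of 40 were lower, against 6.94% of all genes. After adjustment edgeR called 0 of 40 and 91 of all genes (0.675%). DESeq2 called 9 of 40 and 651 of all genes (4.83%): Irf7, Oas2, Zbp1, Bst2, Ifitm3, Rtp4, Gbp2, Ifi44 and Trim30a, all lower. Ifi44 differed by -1.08 (SE 0.22, adjusted p = 0.0731 by edgeR and 0.00139 by DESeq2) and Bst2 by -0.71 (SE 0.15, adjusted p = 0.0878 by edgeR and 2.04e-04 by DESeq2). In the further list of interferon-stimulated genes 65 of 66 were lower in haemoglobin-positive libraries, with a median of -0.52, and edgeR called 3, Gbp6, Slfn1 and Tap1, named after their values were seen. All 6 receptor genes and all 7 signal transduction genes were lower too, with medians of -0.35 and -0.38 and 0 called.

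The count over all genes moved with most single libraries: edgeR called 2 genes without flox 1, 9 without CKO 3 and 26 without CKO 1. It called 44 without flox 3, 78 without CKO 2 and 260 without flox 2. Without flox 2 it called 1 listed gene, Gbp2 (log2 difference -1.64, adjusted p = 0.01602). The listed median was -0.76 without flox 1 and -0.28 without CKO 1. Each shared mouse number lies wholly in 1 haemoglobin level, and each level holds 2 mouse numbers. With libraries of a shared number summed, 38 of 40 listed genes were lower at the positive level (median -0.50), and edgeR called 0 of them and 30 of all genes.

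Sums of 4 marker lists of other cells did not overlap between haemoglobin levels. Conventional dendritic cell genes (8 of 8 listed had a row) summed to 251 to 270.1 CPM in haemoglobin-negative and 82.7 to 147 CPM in haemoglobin-positive libraries. Of these 8 genes, 5 were lower with no overlap in haemoglobin-positive libraries, against 11.6% of all genes. Border-associated macrophage genes (8 with a row, 1 without overlap) summed to 1005 to 1861 and 627 to 848 CPM. Plasmacytoid dendritic cell genes (8 with a row, 2 without overlap), of a cell type that makes much type I interferon, summed to 126 to 155 and 105 to 121 CPM. Rod photoreceptor genes (16 with a row) went the other way, at 12007 to 12350 and 17167 to 29967 CPM. The other sums overlapped. Microglial genes (11 of 12 listed) spanned 3378 to 5308 CPM in haemoglobin-negative and 3692 to 8287 CPM in haemoglobin-positive libraries, monocyte genes (10 of 11 listed) 595 to 728 and 625 to 773 CPM, T and NK cell genes (10 of 10) 182 to 229 and 65.5 to 209.8 CPM, and neutrophil genes (9 of 9) 50.1 to 229.9 and 59.02 to 128 CPM. Of these, 5 of 10 T and NK cell genes and 2 of 10 monocyte genes were lower with no overlap in haemoglobin-positive libraries. Among microglial and neutrophil genes there were 0 each. Camp and Ngp, of the neutrophil list, had no count. Their part in the levels of interferon-stimulated genes was not tested, and in such bulk samples fewer cells of a type and less RNA per cell cannot be told apart. Between labels none of the 9 marker sums separated (exact permutation p, two-sided, 0.2 to 1, where the smallest that 3 against 3 allows is 0.1), with microglial genes at 3378 to 8287 CPM among flox and 3692 to 5308 CPM among CKO. Of 11 microglial genes tested 2 had a positive fold change, Tmem119 (0.19, SE 0.21) and Csf1r (0.13, SE 0.22). Cx3cr1 lay lower with no overlap, as did 4.12% of all genes. It stood at 221, 476 and 323 CPM across flox 1 to 3 against 130, 188 and 112 CPM across CKO 1 to 3 (log2 fold change -1.25, SE 0.31, unadjusted p 0.003917, adjusted p = 0.9996 by edgeR). Its part in the result was not tested.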

How the data were processed

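A deposited table of estimated counts per gene symbol, not scaled by the authors, was used. Per the submitters' processing notes, fastp 0.18.0, HISAT2 2.2.4 and the build mm10 were used; no source used here names a counting tool, annotation or strand setting, so near-identical or overlapping genes are uncertain. Of the 40 listed genes 17, among them Ifit1, Ifit3, Ifit3b, Oas1a, Gbp3, Gbp7 and Igtp, had deposited values that are not whole. Of 21956 rows, 83 without a symbol (0.0122% to 0.0185% of counts) were left out and 22 of a repeated symbol were summed. Estimated counts were rounded. Tests used edgeR 4.0.16 in R 4.3.3 (TMM, filterByExpr, robust quasi-likelihood, group alone, prior count 0.125, Benjamini-Hochberg at 0.05 over 13477 genes), checked on simulated data. Alternatives used DESeq2 1.42.0 and limma 3.58.1. Haemoglobin-positive means above 100 CPM. Positions are GRCm38, GENCODE M21.

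The listed genes, the other lists and the tests were chosen with earlier results of these data known. Full statistics were given for the 14 listed genes of smallest p and for Isg15, Irf7, Ifit1, Ifit3, Stat2, Usp18, Cxcl10, Rsad2 and Mx1; the statistics of Gbp2 and Ifi44 were added after their values were seen. Of other lists, the 2 genes of smallest p and fixed pathway genes were named. P-values set a difference against the spread between libraries, some of which may share an animal. Values of 2 genes outside the list are not reported here.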

Additional observations from a re-analysis of the deposited data

How the results depend on the processing

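Across 18 other settings (scaling, count filter, prior count, tool, mouse number, title number, haemoglobin level, each library left out), 0 of 40 listed genes were called between labels in every one. The count over all genes was 18 with DESeq2 and 2 with the haemoglobin term, and 0 in each other setting. With shared mouse numbers summed or the haemoglobin term, 33 listed genes were lower in CKO, and leaving out 1 library gave 9 to 31. The median stayed smaller in size than the spread between libraries (0.36, log2), but its sign was not stable. That spread is the SD of the centred library medians within a label, pooled over both labels. It describes single libraries and is not an error of the difference between labels. Scaling by library totals moved the median of all genes to -0.12 and that of the listed genes to -0.16. With the title number as a replicate block 0 genes were called and 25 listed genes were lower (median -0.06), and Ifit3 turned to -0.09, so the paired fit changed no call. Libraries of the same title number had correlations of the deviations of -0.34, 0.08 and -0.31. Each title number joins a haemoglobin-positive and a haemoglobin-negative library, so these values cannot show whether the libraries were paired.

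Of 378 values of 21 named genes, 23 changed sign, in 8 genes, each of which lay within a standard error of 0 in the comparison as reported. With codes summed and with the haemoglobin term, in that order, Zbp1 gave -0.02 and -0.02, Isg15 -0.13 and -0.07 and Ifit3 -0.18 and -0.16. With library totals Isg15 gave -0.08 and Ifit3 -0.06, a move close to that of all genes under this scaling, and with the shared number as a random block Ifit3 gave -0.12. Rsad2 gave 0.00 with RLE scaling and with DESeq2. Leaving out 1 library turned 7 of the genes, Isg15 to -0.03 (flox 3) and -0.22 (CKO 2), Ifit1 to 0.05 (CKO 3), Ifit3 to -0.60 (CKO 2), Stat2 to 0.08 (CKO 1), Usp18 to 0.09 (flox 1) and 0.01 (CKO 3), Cxcl10 to 0.12 (flox 2) and Rsad2 to 0.10 (flox 2), 0.13 (CKO 1) and 0.16 (CKO 3). At the other end, leaving out 1 library gave 0.22 for Isg15 (flox 1), 0.40 for Ifit3 (CKO 1) and, each without CKO 2, -0.40 for Ifit1, -0.49 for Stat2, -0.58 for Usp18, -0.73 for Cxcl10 and -0.39 for Rsad2. Counting moves of over 1.5 times as well as changes of sign, all 21 named genes moved under at least 1 setting, and 20 of them, all but Bst2, by leaving out 1 library. The cause was not tested.

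For haemoglobin level, with alternatives chosen after seeing the data, genes called over all genes numbered 651 with DESeq2, 30 with codes summed and 2 to 260 with 1 library left out. Listed genes called numbered 9 with DESeq2 and 0 to 1 with 1 library left out. The listed genes lower in haemoglobin-positive libraries numbered 33 to 40 under every setting run. With 50 bases downstream included, 20 of 31 promoters held the response element core.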
